A study of Mus musculus with 12 samples.

Results

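Tktl1 encodes a transketolase-like protein, and it is described here together with 7 enzymes of the pentose phosphate pathway, Tkt, Taldo1, G6pdx, Pgd, Pgls, Rpia and Rpe, across 12 mouse libraries. These are 8 of the 35652 genes listed for the cultured and fetal libraries, and all 8 were also found by Entrez ID among the 34896 genes listed for the postnatal libraries. Tktl1 was chosen by its counts, because it is lost in knockout line 2 alone, and the other 7 by their place in the pathway. The levels of Tktl1 in cultured cells are therefore given as a description, with no test, and the other members are tested.

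SC3-seq, which reads the 3′ ends of amplified cDNA, was applied to 6 groups of 2 libraries. Germline stem cells (GSCs), cultured spermatogonial stem cells, were Stag3 KO line 1 (KO1), Stag3 KO line 2 (KO2) or WT, all on the AAG cell line, whose transgenes Acrosin-EGFP and beta-Actin-EGFP are thus shared by knockout and WT cells. Testis germ cells came from Vasa-RFPTg/0 males on embryonic days 16 (E16) and 17 (E17) and on day 7 after birth (P7). Stag3 encodes a germline subunit of cohesin. Whether a knockout line is a single clone, which part of Stag3 was removed, how germ cells were sorted and whether animals were pooled is not stated in the labels. No label says whether the 2 libraries of a group are separate cultures or animals, and the p-values measure only their spread, which may be technical.

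Total counts ranged from 1938644 to 4596607 per library. Levels are given as RPM, reads per 1000000 reads of genes outside the mitochondrial genome, and log2 fold changes come from edgeR with TMM scaling. The germ cell markers Ddx4, Dazl, Mael, Tex101 and Dnd1 summed to between 2472 and 3505 RPM in every library, all 5 being detected. Stag3 stood at 295 and 304 RPM in KO1, 137 and 152 RPM in KO2, and 385 and 420 RPM in WT, and tags from the 3′ end check nothing if the removed part lies elsewhere in the gene. The P7 libraries were counted on another gene list than the fetal ones, so age and counting cannot be told apart in comparisons with P7.

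The pentose phosphate pathway branches from glycolysis at glucose 6-phosphate. Its oxidative arm oxidises this sugar in steps catalysed by glucose-6-phosphate dehydrogenase (G6pdx), 6-phosphogluconolactonase (Pgls) and 6-phosphogluconate dehydrogenase (Pgd), yielding NADPH and a pentose phosphate. Its non-oxidative arm makes ribose 5-phosphate for nucleotides through ribose-5-phosphate isomerase (Rpia). This arm also holds ribulose-5-phosphate epimerase (Rpe), and it returns carbon to glycolysis through transketolase (Tkt) and transaldolase (Taldo1). NADPH is what glutathione reductase and thioredoxin reductase use to keep their partners reduced. Tktl1 is a relative of Tkt that lacks a conserved stretch of the protein, and whether it acts as a transketolase is disputed. Its RNA is known from testis.

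In the reference annotation of GRCm38.p6, Tktl1 and G6pdx lie on the X chromosome and the other members each on a different autosome. Tktl1 spans chrX:74177259-74208498 on the forward strand and overlaps no other annotated gene. G6pdx spans chrX:74409483-74428880 on the reverse strand, 201.0 kb beyond the end of Tktl1, and overlaps Ikbkg on the opposite strand. Tkt spans chr14:30549131-30574724, Taldo1 chr7:141392160-141402976 and Pgls chr8:71592184-71596267. Rpe spans chr1:66700797-66719805 and overlaps Kansl1l on the opposite strand, Pgd spans chr4:149149991-149166705, and Rpia spans chr6:70765720-70792175. Whether counting used strand is not given in the sources used here, so reads of G6pdx and Ikbkg, and of Rpe and Kansl1l, cannot be told apart where the genes overlap.

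The 250 bases before the annotated start are printed for 3 members, since Tktl1 is the gene that is lost, G6pdx is the other member on the same chromosome and Tkt is the transketolase gene, with which Tktl1 is compared. They are RefSeq sequence of GRCm38.p6, 5′ to 3′ on the strand of the gene, with each GC box (GGGCGG on either strand, overlapping matches included) in capitals. The windows are chrX:74177009-74177258 for Tktl1, chrX:74428881-74429130 for G6pdx on the reverse strand, and chr14:30548881-30549130 for Tkt.
Tktl1: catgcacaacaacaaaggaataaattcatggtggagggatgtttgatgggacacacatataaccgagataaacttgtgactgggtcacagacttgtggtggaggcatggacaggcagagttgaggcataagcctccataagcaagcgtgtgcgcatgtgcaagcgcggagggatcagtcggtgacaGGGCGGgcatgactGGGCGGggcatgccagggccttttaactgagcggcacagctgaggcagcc
G6pdx: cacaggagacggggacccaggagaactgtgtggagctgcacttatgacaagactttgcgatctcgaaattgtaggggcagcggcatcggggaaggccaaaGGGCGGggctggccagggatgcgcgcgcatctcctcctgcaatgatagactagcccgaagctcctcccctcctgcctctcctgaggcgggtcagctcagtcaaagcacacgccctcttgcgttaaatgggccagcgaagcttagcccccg
Tkt: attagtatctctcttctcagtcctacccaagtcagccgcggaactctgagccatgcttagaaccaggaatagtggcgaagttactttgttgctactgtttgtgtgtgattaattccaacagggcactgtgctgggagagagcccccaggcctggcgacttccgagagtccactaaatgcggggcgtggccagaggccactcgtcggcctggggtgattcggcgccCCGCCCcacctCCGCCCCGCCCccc
The Tktl1 window holds 2 GC boxes, the G6pdx window 1 and the Tkt window 3. A GC box was found in 32.74% of all 32851 windows of this length. The E-box CACGTG, found in 6.02% of the windows, occurs in none of the 8 members' windows. The Tktl1 window has 9 CpG sites, the G6pdx window 15 and the Tkt window 14, against a median of 6 over all windows.

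Tktl1 RNA was close to absent in KO2 and ordinary in KO1. Its level was 83.6 and 83.8 RPM in the KO1 libraries (284 and 240 counts), 0.540 and 0.832 RPM in the KO2 libraries (2 and 3 counts) and 92.6 and 77.7 RPM in the WT libraries (340 and 312 counts). The KO1 libraries lie within the WT range, and the KO2 libraries lie far below every other library. The level in WT was 124-fold that in KO2, with an exact 95% counting interval from 52.9 to 383 on 5 counts in KO2 and 652 in WT, and the level in KO1 was 122-fold that in KO2, with an interval from 52.1 to 378. These intervals cover counting error only. In bulk libraries, fewer cells with Tktl1 RNA and less of it per cell cannot be told apart.

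The rule that found Tktl1 set limits on all genes. Of the remaining genes, 6519 had means of at least 20 RPM in both KO1 and WT. Among these, Tktl1 was the only gene whose KO2 mean was under 5% of each of them, at 0.820% of KO1 and 0.806% of WT. The next gene by this measure was Tex12, a component of the synaptonemal complex, whose KO2 mean was 36.9% of that in KO1 and 26.0% of that in WT. With the lines exchanged, 0 genes met the same limits in KO1. These values restate the choice of Tktl1 and are given with no test.

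In testis germ cells Tktl1 was found at every age. It stood at 68.6 and 65.5 RPM at E16, 93.6 and 96.3 RPM at E17 and 132 and 117 RPM at P7. Over the 6 groups the mean was highest at P7 (125 ± 10.4 RPM, SD, n = 2), followed by E17 (94.96 ± 1.88), GSC WT (85.2 ± 10.5), GSC KO1 (83.7 ± 0.158), E16 (67.0 ± 2.20) and GSC KO2 (0.686 ± 0.207). Within this order the libraries of KO1 and WT overlap, and no other neighbouring groups do. The KO2 mean is thus far under the lowest mean of any other group, that of E16.

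**Figure D1:**
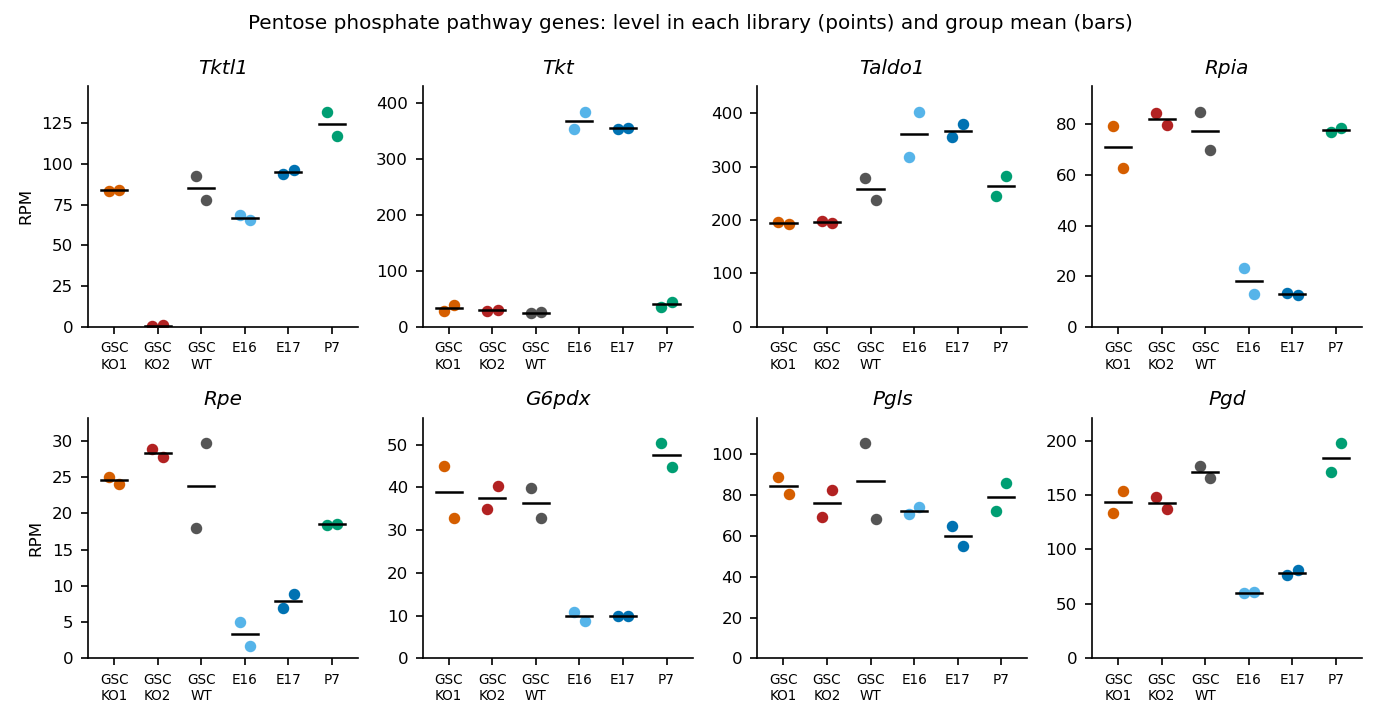
Level (RPM, linear axis from 0, a separate scale per gene) of the 8 genes in each of 12 libraries (points) with group means (bars), for GSC KO1, KO2 and WT and for testis germ cells at E16, E17 and P7. Tktl1 falls to 0.540 and 0.832 RPM in KO2, Tkt is at 353 to 385 RPM in the fetal libraries and under 46 RPM in all others, and G6pdx, Rpia and Rpe are lowest in the fetal libraries.

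Tkt, which encodes transketolase itself, passed no test in either knockout line. It was at 29.1 and 38.4 RPM in KO1, 29.2 and 30.5 RPM in KO2 and 24.2 and 26.2 RPM in WT. All 4 knockout libraries lie above both WT libraries, yet the difference passed no test in edgeR: the log2 fold change was 0.36 ± 0.20 (SE, n = 2 libraries a group; adjusted p = 0.2395) for KO1 against WT, 0.19 ± 0.20 (adjusted p = 0.5669) for KO2 against WT and -0.17 ± 0.20 (adjusted p = 0.8688) for KO2 against KO1. A p that misses the threshold does not show equal levels.

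Within a library, the counts of both genes give a share that needs no scaling between libraries. Tktl1 made up 74.2% and 68.6% of the Tktl1 and Tkt counts in KO1, 1.82% and 2.65% in KO2 and 79.3% and 74.8% in WT. In testis germ cells the share was 16.3% and 14.5% at E16, 20.9% and 21.3% at E17, and 78.9% and 72.2% at P7. The share of the fetal libraries thus lies between that of KO2 and those of KO1, WT and P7. It is a ratio of counted 3′ tags and not of transcripts, since amplification and priming may differ between the genes.

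**Figure D2:**
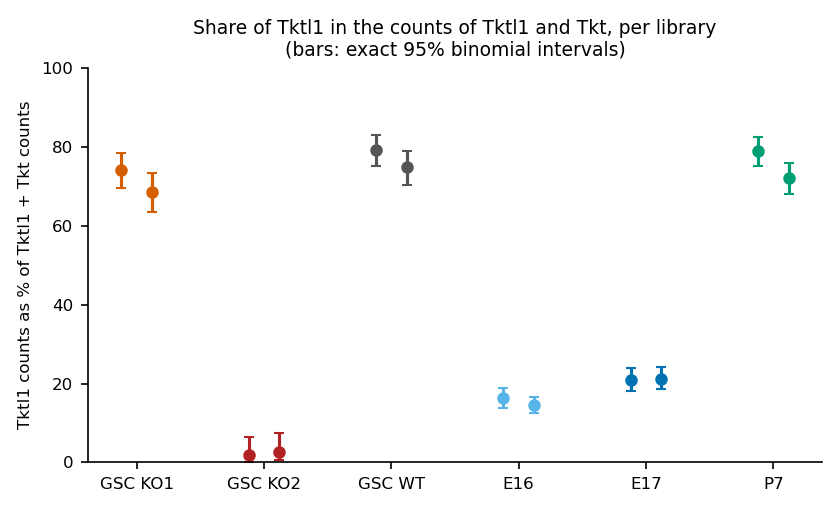
Tktl1 counts as a percentage of Tktl1 plus Tkt counts in each library (points, 2 per group), with exact 95% binomial intervals that cover counting error only. KO1, WT and P7 libraries lie between 68.6% and 79.3%, fetal libraries between 14.5% and 21.3%, and KO2 libraries at 1.82% and 2.65%.

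Taldo1, transaldolase, was lower in both knockout lines than in WT. It stood at 197 and 193 RPM in KO1, 198 and 195 RPM in KO2, and 280 and 238 RPM in WT. The 4 knockout libraries lie close together and below both WT libraries. The log2 fold change was -0.46 ± 0.09 for KO1 against WT (SE, edgeR, adjusted p = 0.0001396) and -0.45 ± 0.09 for KO2 against WT (adjusted p = 0.0001445). With spike-in totals as size factors, the value for KO2 was -0.38 and no longer passed.

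Pgd, the second NADPH-yielding enzyme of the oxidative arm, was also lower in both lines. It stood at 134 and 153 RPM in KO1, 148 and 137 RPM in KO2, and 177 and 166 RPM in WT, with no overlap between knockout and WT libraries. The log2 fold change was -0.31 ± 0.10 for KO1 against WT (SE, edgeR, adjusted p = 0.03323) and -0.31 ± 0.10 for KO2 against WT (adjusted p = 0.02432). Pgd was called in neither comparison by DESeq2, with spike-in totals as size factors, with library totals without TMM or in the fit of all 12 libraries, and not in KO1 against WT with no low-count filter. The call for KO1 ended without WT replicate 1 (-0.25), without KO1 replicate 1 (-0.22) and without either KO2 replicate (-0.31 and -0.31), which share the fit, and the call for KO2 ended without WT replicate 1 (-0.25), KO2 replicate 1 (-0.38) or KO2 replicate 2 (-0.26).

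The other oxidative enzymes did not pass. G6pdx, which commits glucose 6-phosphate to the pathway, was at 45.0 and 32.8 RPM in KO1, 34.8 and 40.2 RPM in KO2, and 39.8 and 32.9 RPM in WT, with all groups overlapping. Pgls was at 88.9 and 80.3 RPM in KO1, 69.4 and 82.7 RPM in KO2, and 105 and 68.0 RPM in WT, where the WT libraries themselves span the knockout values. The log2 fold changes against WT were 0.06 ± 0.18 in KO1 and -0.0001 ± 0.18 in KO2 for G6pdx, and -0.08 ± 0.14 in KO1 and -0.24 ± 0.14 in KO2 for Pgls. Without WT replicate 2, Pgls passed as lower in both lines (-0.39 in KO1 and -0.55 in KO2), and without WT replicate 1 its values were above 0 (0.28 and 0.12).

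The isomerase and the epimerase of the non-oxidative arm did not pass either. Rpia was at 79.2 and 62.8 RPM in KO1, 84.5 and 79.9 RPM in KO2, and 84.9 and 70.0 RPM in WT. Rpe was at 25.0 and 24.1 RPM in KO1, 28.9 and 27.7 RPM in KO2, and 18.0 and 29.7 RPM in WT, the WT libraries again lying on both sides. The log2 fold changes against WT were -0.17 ± 0.14 in KO1 and 0.04 ± 0.14 in KO2 for Rpia, and -0.01 ± 0.22 in KO1 and 0.20 ± 0.21 in KO2 for Rpe.

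Counted over the 7 tested members, 0 were higher and 2 lower in KO1 against WT, where 13.8% of all 11877 tested genes passed in either direction, 6.26% higher and 7.49% lower. In KO2 against WT, 0 were higher and 2 lower, against 15.7% of all genes, 7.2% higher and 8.48% lower. Both comparisons share the WT libraries, so the same 2 genes in both are not independent results. The median log2 fold change of the 7 was -0.08 in KO1 and -0.0001 in KO2, against 0.01 and 0.01 over all genes.

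The lines that do and do not have Tktl1 RNA can be compared directly. In KO2 against KO1, 0 of the 7 other members passed in edgeR, 0 had an unadjusted p under 0.05 and 0 passed in DESeq2. Over all genes 0.842% passed, 0.278% higher and 0.564% lower, so a count of 0 among 7 is near the background. The largest difference was 0.21 ± 0.14 for Rpia, with 0.21 ± 0.22 for Rpe, -0.16 ± 0.14 for Pgls, -0.06 ± 0.18 for G6pdx, 0.01 ± 0.10 for Taldo1 and -0.01 ± 0.11 for Pgd (log2, SE). Markers of other cells and of germ cells moved with the knockout lines. The 8 fibroblast and feeder cell markers summed to 220 to 228 RPM in KO1, 210 to 211 RPM in KO2 and 245 to 251 RPM in WT. Most of each sum was Fn1, at 184 and 191 RPM in KO1, 178 and 183 RPM in KO2 and 159 and 165 RPM in WT. Fn1 was not called (0.16 ± 0.10 in KO1 and 0.10 ± 0.10 in KO2 against WT). Of the 6 that were tested, 3 were lower in KO1 against WT, from -1.72 to -1.09. In KO2 against WT 4 were lower, from -2.07 to -1.33. The 10 Sertoli cell markers summed to 62.1 to 63.6 RPM in KO1, 41.9 to 47.4 RPM in KO2 and 32.9 to 35.9 RPM in WT, with Amh, Cst9 and Rhox8 at 0 in every GSC library, and of 5 tested, 3 were higher in KO1, and 2 higher and 1 lower in KO2. The peritubular myoid markers summed to 12.2 to 12.7 RPM in KO1, 3.33 to 4.05 RPM in KO2 and 5.98 to 9.53 RPM in WT, and the 1 tested, Acta2, was lower in KO2 against KO1 (-3.76 ± 0.63) and against WT (-2.85 ± 0.68). Of the 5 germ cell markers, 0 were called in KO1 against WT, 3 were lower in KO2 against WT, Ddx4 (-0.54 ± 0.08), Dnd1 (-0.62 ± 0.11) and Mael (-0.36 ± 0.08), and 2 in KO2 against KO1, Ddx4 (-0.38 ± 0.08) and Dnd1 (-0.52 ± 0.11). The part of these markers in the results was not tested.

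**Figure D3:**
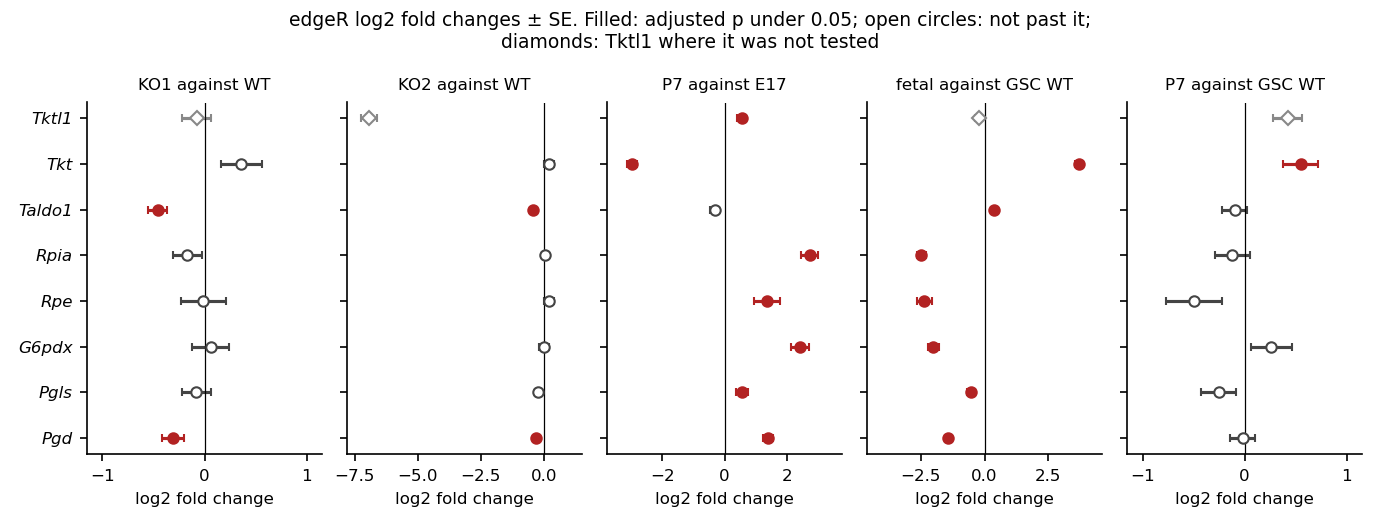
Log2 fold changes (points) with standard errors (bars) of the 8 genes in 5 comparisons, each panel with its own axis. Filled points passed an adjusted p of 0.05, open circles did not, and diamonds mark Tktl1 where it was not tested. In the knockout panels Taldo1 and Pgd alone are filled, P7 against E17 has 6 genes above 0 and Tkt at -2.98, and fetal against GSC WT has Tkt at 3.71. With spike-in totals as size factors, the genes above 0 in P7 against E17 and those below 0 in fetal against GSC WT change sign.

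The question whether the loss extends along the chromosome was asked of the genes around Tktl1. Taking a gene's lowest coordinate as its start, of 60 annotated genes that start within 500 kb of the start of Tktl1 42 are in the files, 23 reach a mean of 20 RPM in a group and 22 of these were tested in GSCs. Flna, which encodes the actin crosslinker filamin A and starts 46.2 kb away, is the nearest of them, and stood at 84.2 and 84.1 RPM in KO1, 82.1 and 88.8 RPM in KO2, and 87.7 and 71.8 RPM in WT. Its libraries overlap between all 3 groups, and its log2 fold change was 0.02 ± 0.13 for KO2 against KO1 and 0.05 ± 0.13 for KO2 against WT.

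Among the 22 tested neighbours of at least 20 RPM, 0 were higher and 1 lower in KO2 against KO1. Over all genes 0.278% were higher and 0.564% lower. The lower neighbour was Ctag2l1, a relative of the human cancer/testis antigen genes, whose start lies 302.9 kb from that of Tktl1. It stood at 68.0 and 77.2 RPM in KO1, 25.7 and 28.6 RPM in KO2, and 38.4 and 46.8 RPM in WT, so that the groups do not overlap and WT lies between the lines. Its log2 fold change was -1.42 ± 0.17 for KO2 against KO1 (edgeR, adjusted p = 2.897e-10), -0.70 ± 0.17 for KO2 against WT (adjusted p = 0.001835) and 0.71 ± 0.16 for KO1 against WT (adjusted p = 0.0005296).

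In KO2 against WT, 7.2% of all genes were higher and 8.48% lower. Of the 22 neighbours, 4 were higher and Ctag2l1 was the 1 that was lower. The higher ones included Pdzd4 (0.83 ± 0.28), Idh3g, a subunit of the mitochondrial isocitrate dehydrogenase (0.32 ± 0.11), and the ribosomal protein gene Rpl10 (0.24 ± 0.07). In KO1 against WT 3 were higher and 0 lower, against 6.26% and 7.49% of all genes. The 3 were Pdzd4 (1.16 ± 0.28), Ctag2l1 and the translocon subunit gene Ssr4 (0.42 ± 0.14). Among the genes that passed in no GSC comparison were Bcap31, Naa10, Hcfc1, Irak1, Flna, Emd, Taz, Atp6ap1, Fam50a, Plxna3, Lage3 and Slc10a3, together with Ikbkg and the member G6pdx. L1cam was not tested in GSCs, where its means were 0.643 RPM in KO1, 1.10 RPM in KO2 and 0.136 RPM in WT. Over all 27 tested genes of the window the median log2 fold change was -0.02 for KO2 against KO1 and 0.13 for KO2 against WT. Below 20 RPM, Arhgap4 was lower in KO2 against WT (-2.53 ± 0.87), on 0 and 4 counts in KO2 and 8 and 17 in WT, and it is named after its values were seen.

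**Figure D4:**
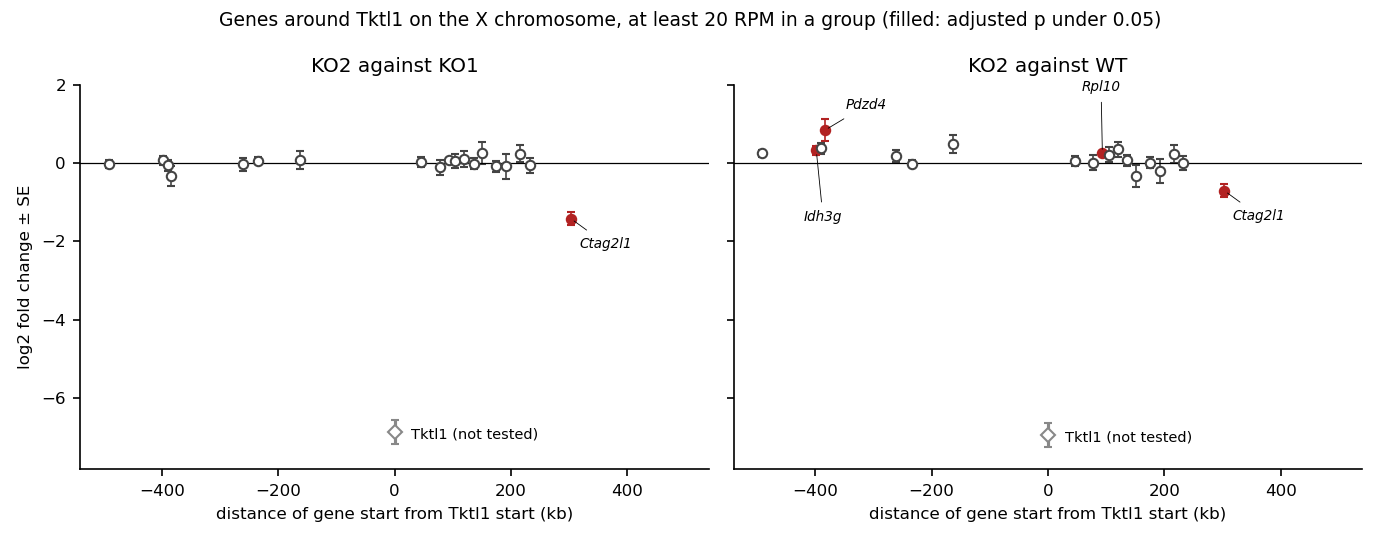
Log2 fold change with standard error against the distance of a gene's start from that of Tktl1 (kb), for 19 of the 22 tested genes of at least 20 RPM in a group, in KO2 against KO1 and KO2 against WT. Filled points passed an adjusted p of 0.05, and the diamond is Tktl1, which was not tested. All 19 neighbours shown lie between -1.42 and 0.83, while Tktl1 is at -6.86 and -6.93.

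Tktl2, a further relative of Tkt, was lower in both knockout lines. It belongs to a list of 17 further genes of pentose phosphate metabolism, and it stood at 2.94 and 0.698 RPM in KO1 (10 and 2 counts), 4.05 and 2.22 RPM in KO2 (15 and 8 counts), and 18.2 and 18.7 RPM in WT (67 and 75 counts). The knockout libraries all lie below the WT libraries. The log2 fold change was -3.30 ± 0.44 for KO1 against WT (edgeR, adjusted p = 2.839e-09) and -2.59 ± 0.39 for KO2 against WT (adjusted p = 9.35e-08), and 0.72 ± 0.58 for KO2 against KO1 (adjusted p = 0.7706). In testis germ cells Tktl2 was at 1.99 and 1.06 RPM at E16, 7.51 and 11.5 RPM at E17, and 30.9 and 34.0 RPM at P7. In KO1, Tktl1 thus lies within the WT range and Tktl2 below it.

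Of that list 12 genes were tested in GSCs, where 7.49% of all genes were called lower in KO1 and 8.48% in KO2 against WT. In KO1 against WT 0 were higher and 3 lower, Tktl2, the gluconate kinase gene Idnk (-0.95 ± 0.20) and Prpsap1 (-0.38 ± 0.13), which encodes a partner of phosphoribosyl pyrophosphate synthetase. In KO2 against WT 0 were higher and 2 lower, Tktl2 and Idnk (-1.11 ± 0.20), and in KO2 against KO1 none passed in edgeR. Among 10 tested glycolytic genes, 3 were lower in KO1 against WT, the hexokinase gene Hk1 (-1.10 ± 0.26), the aldolase gene Aldoc (-0.66 ± 0.19) and Gapdh (-0.30 ± 0.07), and 1 in KO2 against WT, Aldoc (-0.59 ± 0.19). The medians of both lists stayed between -0.25 and -0.10 in these 2 comparisons, against 0.01 over all genes.

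Across genes of other NADPH sources, of redox metabolism and around Nrf2, calls went in both directions. Their counts are to be read against the 13.8% of all genes called in KO1 and 15.7% in KO2 against WT. Of 10 tested genes of other NADPH sources, 2 were higher and 0 lower in KO1 and again in KO2 against WT: Glud1, glutamate dehydrogenase (0.56 ± 0.13 and 0.51 ± 0.13), and Mthfd1 of the folate cycle (0.41 ± 0.15 and 0.41 ± 0.15). Of 17 genes of glutathione, thioredoxin and peroxide metabolism, 1 was higher and 1 lower in KO1, namely thioredoxin Txn1 (0.54 ± 0.08) and the thioredoxin-glutathione reductase gene Txnrd3 (-0.76 ± 0.16). In KO2 1 was higher and 4 were lower, with Txn1 at 0.49 ± 0.08, Txnrd3 at -0.61 ± 0.15 and glutathione reductase Gsr at -0.56 ± 0.10. Of 10 tested genes around Nrf2, the regulator of antioxidant genes, 1 was lower in KO1 and 2 were lower in KO2, the glutathione transferase genes Gstm1 (-1.31 ± 0.32 and -1.40 ± 0.31) and, in KO2, Gsta4 (-0.66 ± 0.18).

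In testis germ cells the pathway looked different before and after birth. Tkt was at 353 and 385 RPM at E16, 354 and 356 RPM at E17, and 35.2 and 45.1 RPM at P7. It was the single member far lower at P7, with a log2 fold change of -2.98 ± 0.16 for P7 against E17 (SE, edgeR, adjusted p = 1.522e-09). The P7 libraries lie close to the GSC range of 24.2 to 38.4 RPM, and P7 against GSC WT gave 0.55 ± 0.18 (adjusted p = 0.01476). That last call ended without WT replicate 1 (0.50), WT replicate 2 (0.58) or P7 replicate 2 (0.32), and the value was 0.0031 with spike-in totals as size factors.

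The NADPH-yielding dehydrogenases went the other way under TMM scaling. G6pdx was at 10.9 and 8.80 RPM at E16, 9.82 and 9.94 RPM at E17, and 50.3 and 44.8 RPM at P7. Pgd was at 59.6 and 60.5 RPM at E16, 76.3 and 81.1 RPM at E17, and 171 and 198 RPM at P7. For both genes the P7 libraries lie above all fetal libraries. The log2 fold change for P7 against E17 was 2.42 ± 0.29 for G6pdx (adjusted p = 4.099e-06) and 1.38 ± 0.16 for Pgd (adjusted p = 2.644e-06, edgeR), and with spike-in totals as size factors both were below 0 (-2.27 and -3.29). Ikbkg, which overlaps G6pdx, was at 32.3 and 44.4 RPM at E16, 32.4 and 35.1 RPM at E17, and 23.7 and 26.3 RPM at P7. Pgls, between them in the pathway, changed less: it was at 70.6 and 74.3 RPM at E16, 64.7 and 54.9 RPM at E17, and 72.3 and 85.9 RPM at P7, with 0.56 ± 0.19 for P7 against E17 (adjusted p = 0.01482). Its call ended in DESeq2, with library totals without TMM (0.40) and without E17 replicate 2 (0.47) or P7 replicate 2 (0.45), and with spike-in totals as size factors the value was -4.12.

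Rpia was higher at P7 under TMM scaling. It was at 23.4 and 13.0 RPM at E16, 13.3 and 12.6 RPM at E17, and 76.9 and 78.5 RPM at P7, and its log2 fold change for P7 against E17 was 2.74 ± 0.27 (edgeR, adjusted p = 5.729e-07). Rpe was at 4.97 and 1.76 RPM at E16 (10 and 5 counts), 6.94 and 8.90 RPM at E17 (12 and 17 counts), and 18.4 and 18.5 RPM at P7. Its log2 fold change was 1.37 ± 0.43 (adjusted p = 0.01078), a call that ended in DESeq2 and without E17 replicate 1 (1.23) or P7 replicate 2 (1.38). With spike-in totals as size factors both genes were below 0 (-1.94 for Rpia and -3.29 for Rpe). For both genes the P7 libraries lie above all fetal libraries in RPM.

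Tktl1 was itself higher at P7 than at E17, by 0.55 ± 0.16 (log2, SE, edgeR, adjusted p = 0.00599), with no overlap between the libraries. The call ended without E17 replicate 1 (0.55) or P7 replicate 1 (0.50), and with spike-in totals as size factors the value was -4.15. Taldo1 was at 319 and 403 RPM at E16, 356 and 380 RPM at E17, and 246 and 282 RPM at P7, and P7 against E17 gave -0.32 ± 0.15 (adjusted p = 0.06458), which did not pass, but did without E16 replicate 1 (-0.29) or E16 replicate 2 (-0.31), which share the fit.

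Over all 8 members, 6 were higher and 1 was lower at P7 than at E17. Over all 14776 tested genes 67.9% passed, 30.2% higher and 37.8% lower, and the median log2 fold change was 0.97 for the members and -0.13 for all genes. In E17 against E16, 0 of the 8 passed in edgeR and 0 in DESeq2, with 4 at an unadjusted p under 0.05, against 6.6% of all genes, 1.64% higher and 4.96% lower. Which members passed depended on the E16 replicates. With E16 replicate 1 left out, the values were -0.51 for Tkt, -0.53 for Taldo1, -0.71 for Pgls and 1.76 for Rpe. With E16 replicate 2 left out, the value was -1.13 for Rpia. Each of these values rests on 1 E16 library. Scaling to spike-in totals brought the median of all genes to 3.02 in E17 against E16 and to -4.81 in P7 against E17. Relative to that median, the P7 values were 0.67 for Tktl1, -2.84 for Tkt, 2.55 for G6pdx and 2.88 for Rpia. Before the median was subtracted all 8 were below 0, which is relative to spike-in counts and not an absolute amount.

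Set against GSC WT, the fetal libraries (E16 and E17 together) had far more Tkt RNA and slightly more Taldo1 RNA. Under TMM scaling they had less of the other tested members, and the median log2 fold change of all genes was 0.23. Fetal against GSC WT gave a log2 fold change of 3.71 ± 0.14 for Tkt (edgeR, adjusted p = 1.448e-22), -2.01 ± 0.22 for G6pdx, -1.45 ± 0.11 for Pgd, -2.49 ± 0.18 for Rpia and -2.38 ± 0.29 for Rpe. All fetal libraries lie outside the range of the 2 WT libraries for these 5 genes. The share of all genes that do so was not counted, so this is a description only. Taldo1 was higher by 0.37 ± 0.11 and Pgls was at -0.53 ± 0.15, and these calls ended without WT replicate 2 (0.22, Taldo1) and without WT replicate 1 (-0.19, Pgls), while DESeq2 did not call Pgls. Of the 7 tested members 2 were higher and 5 lower, against 74.2% of 15827 genes, 42% higher and 32.3% lower. With spike-in totals as size factors, which brought the median of all genes to 2.87, the 5 lower members were above 0, at 0.62 for G6pdx and 0.16 for Rpia, and below that median by -2.25 and -2.71.

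At P7 the tested members other than Tkt did not pass against GSC WT. P7 against GSC WT gave -0.10 ± 0.12 for Taldo1, 0.26 ± 0.20 for G6pdx, -0.02 ± 0.12 for Pgd, -0.25 ± 0.17 for Pgls, -0.12 ± 0.17 for Rpia and -0.49 ± 0.28 for Rpe (log2, SE), none of which passed in edgeR. Without WT replicate 2, Pgls passed as lower (-0.56). The count was 1 of 7 higher and 0 lower, against 31% of all genes, 16.2% higher and 14.8% lower. Tktl1, which was not tested here, had 0.42 ± 0.14. Both this comparison and the fetal one use the same WT libraries.

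Markers of other testis cells moved with these comparisons. Summed levels of 10 Sertoli cell markers were 155 to 171 RPM at E16, 167 to 177 RPM at E17, 72.02 to 113 RPM at P7 and 32.9 to 35.9 RPM in GSC WT, with Amh at 0 in all of them. Peritubular myoid markers summed to 85.9 to 95.9 RPM at E16, 105 to 116 RPM at E17, 11.5 to 21.9 RPM at P7 and 5.98 to 9.53 RPM in WT. Erythroid markers summed to 140 to 273 RPM at E16, 91.3 to 109 RPM at E17, 12.5 to 82.5 RPM at P7 and at most 0.272 RPM in WT. Leydig, endothelial and macrophage markers were also highest in the fetal libraries, up to 37.2, 57.2 and 13.1 RPM, and Insl3 was at 0 there. Their part in the level of Tkt and of the other members was not tested.

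The further genes of the pathway changed mostly as the members did, under TMM scaling. Of 13 tested further pentose phosphate genes, 8 were higher and 1 was lower in P7 against E17, with a median of 1.46 against -0.13 over all genes, of which 30.2% were higher and 37.8% lower. The largest changes were Pgm2, a phosphopentomutase (-4.16 ± 0.78), Prpsap1 (2.28 ± 0.16) and Idnk (2.15 ± 0.43). In fetal against GSC WT 2 were higher and 10 lower of 14, against 42% and 32.3% of all genes, with Pgm2 at 5.77 ± 0.97, Idnk at -3.49 ± 0.28 and Prps1, which makes phosphoribosyl pyrophosphate from ribose 5-phosphate, at -2.95 ± 0.17. The mean level of Prps1 was 8.27 RPM at E16 and 17.7 RPM at E17, against 86.0 RPM in GSC WT.

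Genes of glutathione, thioredoxin and peroxide metabolism were also mostly low in the fetal libraries under TMM scaling. Of 17 such genes 15 were higher and 1 was lower in P7 against E17, with a median of 0.97, where 30.2% of all genes were higher and 37.8% lower. In fetal against GSC WT 2 were higher and 14 lower, with a median of -1.55 against 0.23 over all genes, of which 42% were higher and 32.3% lower. The largest rises at P7 were glutathione reductase Gsr (3.56 ± 0.25), the mitochondrial peroxiredoxin gene Prdx3 (3.26 ± 0.47) and thioredoxin reductase Txnrd1 (3.21 ± 0.25). Mean levels of Gsr were 22.3 RPM at E16, 17.1 RPM at E17 and 182 RPM at P7, with 184 RPM in GSC WT. Among 11 genes around Nrf2, 7 were higher and 2 lower in P7 against E17, and the cystine transporter gene Slc7a11 was among the lower ones (-3.92 ± 0.63).

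Of 14 tested genes of a glycolysis list, 2 were higher and 9 lower in P7 against E17 under TMM scaling, with a median of -0.97. Over all genes 30.2% were higher and 37.8% lower. In fetal against GSC WT 7 were higher and 2 lower, against 42% and 32.3% of all genes, so the share of higher genes was near that of all genes. Fbp1 and Fbp2, among the 3 with the largest changes, are fructose bisphosphatases, which the list holds beside the glycolytic enzymes. Fbp2 stood at 8.95 and 4.93 RPM at E16, 20.8 and 19.9 RPM at E17 and at 0 counts in every P7 and GSC library. Of 13 genes of other NADPH sources 7 were higher and 6 lower in P7 against E17, led by the mitochondrial malic enzyme Me3 (-5.42 ± 0.57), Mthfd2l (-4.42 ± 0.68) and Idh2 (-1.81 ± 0.26), which were all low in GSCs. With spike-in totals as size factors, the P7 values of all these lists shift down, and the fetal values shift up, with the median of all genes given above.

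**Figure D5:**
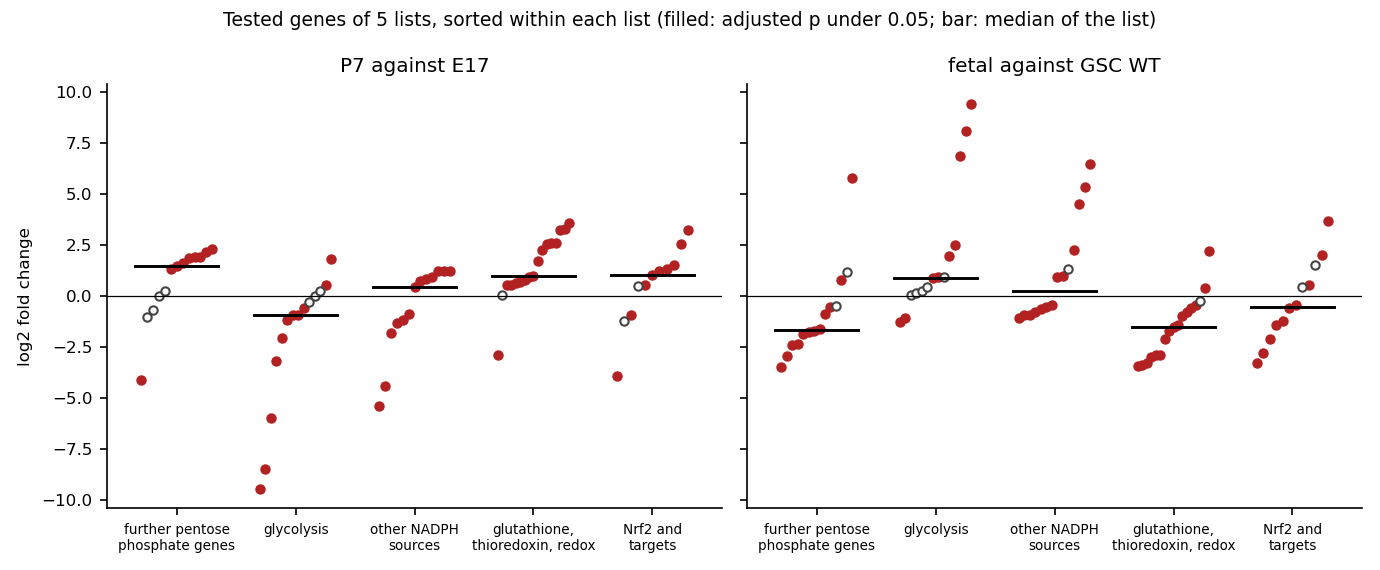
Log2 fold changes of the tested genes (points, sorted within a list) of 5 gene lists in P7 against E17 and in fetal against GSC WT, with list medians (bars). Filled points passed an adjusted p of 0.05. The medians of further pentose phosphate genes and of redox genes are at 1.46 and 0.97 in P7 against E17, and at -1.69 and -1.55 in fetal against GSC WT, under TMM scaling.

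Across the 12 libraries, the genes whose pattern was most like that of Tktl1 were led by Ghitm (Pearson r = 0.90 over log2(RPM + 1)), followed by Bcl2l11 (0.87), Xlr5b (0.87), Creb3l2 (0.86), Tex12 (0.85), Stk31 (0.85), Pxdn (0.83), Ddx4 (0.82), Impact (0.81) and Zcchc12 (0.81). These are the top 10 of 9406 genes of both gene lists with a mean of at least 20 RPM in a group. The same kinds of genes were left out as in the search for loss in KO2. The libraries share groups and preparation, so r describes these libraries only. All 10 had their lowest mean in KO2. Without the KO2 libraries, 0 of the 10 remained in the top 10, so the likeness rests on KO2. The pathway members were not among them, with r from -0.34 for Rpe to 0.49 for Taldo1, and 0.29 for Tkt. Without the KO2 libraries these were -0.38 for Tkt, -0.18 for Taldo1, 0.47 for Rpe and 0.61 for Pgd.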

How the data were processed

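SC3-seq libraries were read from whole-number counts per gene, 1 table for each of 12 libraries, as deposited by the authors. A second column of the deposited tables, treated as a score, is the authors' reads per 1000000, in which each count is multiplied by 1 factor per library, and it was used only to check the counts. TopHat2 2.1.1, HTSeq 0.9.1, cutadapt 1.18, Salmon 1.4.0 and the build GRCm38.p6 are named in the submitters' processing notes, with no role or order, and the strand setting is not given in the sources used here. Spike-in (ERCC) rows, transgene rows, mitochondrial genes and gene rows with a blank count were left out of library sizes and tests. Blank gene rows numbered 10 in each GSC and fetal library and 214 in each P7 library. ERCC rows held 2.903% and 3.124% of the counts in the GSC WT libraries. All knockout libraries lay between 2.798% and 3.408%. Among testis germ cells the ERCC share was 1.215% and 1.523% at E16, 0.194% and 0.231% at E17, and 5.851% and 4.69% at P7. It was thus lowest at E17 and highest at P7. The P7 totals hold 0 mitochondrial counts, against 204508 to 308699 in the fetal libraries, so these shares are not like for like. For GSC WT, titles and table names give opposite replicate numbers, and the titles were followed.

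Counts were tested with the quasi-likelihood test of edgeR 4.0.16 (R 4.3.3) after TMM scaling and filterByExpr, with Benjamini-Hochberg adjustment over all tested genes and a threshold of 0.05. The 6 GSC libraries formed one fit and the 6 testis libraries another. GSC WT was compared with testis cells in a fit of all 12, over genes found by Entrez ID in both gene lists. Each fit pools the spread of its groups of 2 libraries. Levels in RPM use the counts of genes outside the mitochondrial genome, and 3 counts were taken as the floor. Share and ratio intervals are exact at 95% and cover counting error only. The procedure was tested on simulated data before use. Alternatives were DESeq2 1.42.0, ERCC totals as size factors, no filter, a replicate block, mitochondrial genes kept, an absolute log2 fold change of at least 1, a fit of all 12 libraries and leaving out each library. Library totals without a TMM factor were added after seeing the data.

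The members and lists were chosen with earlier results of these data known. Besides the members, the genes named are the 3 of each list with the largest change past the threshold, genes within 500 kb of the start of Tktl1 with a mean of at least 20 RPM in a group, and the 10 genes most like Tktl1 over log2(RPM + 1). A few genes that this rule covers are not reported here. Gene names, positions and promoter sequence come from RefSeq.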

Additional observations from a re-analysis of the deposited data

Results flagged for a closer look

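Among the tested neighbours of Tktl1 of at least 20 RPM and the 5 metabolic gene lists, the effects of the knockout lines differed from each other, by a direct test, for 2 genes. Over all genes 0.842% passed that test. The germ cell markers Ddx4 and Dnd1 and the myoid marker Acta2, given above, also differed between the lines. Ctag2l1, a neighbour of Tktl1 on the X chromosome, had a log2 fold change of -1.42 for KO2 against KO1 (edgeR, adjusted p = 2.897e-10), being lower than WT in KO2 and higher than WT in KO1. Gapdh, a glycolytic dehydrogenase, stood at 1281 and 1231 RPM in KO2, against 1029 and 1001 RPM in KO1, and at 1246 and 1165 RPM in WT. Its log2 fold change was 0.31 for KO2 against KO1 (edgeR, adjusted p = 0.003075), so the KO1 libraries lie below those of the other GSC groups.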

How the results depend on the processing

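Of 400 values of a member's log2 fold change under another setting, 324 counted as the same and 35 as changed in sign. Of the rest, 24 lost a call, 16 gained one and 1 moved. The same means an unchanged direction and side of the threshold or, for Tktl1 where it was not tested, a value close to the main one. A changed sign was counted first, so calls lost along with the sign are not among the 24. The cause of these changes was not tested.

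With spike-in (ERCC) totals as size factors, the median of all genes stood at -0.09 in KO1 and 0.07 in KO2 against WT, 0.16 in KO2 against KO1, 3.02 in E17 against E16, -4.81 in P7 against E17, 2.87 in fetal against GSC WT and -0.42 in P7 against GSC WT. Members past the threshold were then 1 in KO1 and 0 in KO2 against WT, where 1149 and 1180 of all 11877 genes passed. They were 8 in E17 against E16, where 14508 of 14776 genes passed. In P7 against GSC WT they were 5, where 5618 of 15827 genes passed. G6pdx turned to -0.0365 in KO1 and 0.06 in KO2 against WT, and in KO2 against KO1 G6pdx turned to 0.10, Pgd to 0.16 and Pgls to 0.0029. In E17 against E16, Tkt turned to 2.63, Taldo1 to 2.72, G6pdx to 2.69, Pgls to 2.42 and Rpia to 2.18. In P7 against E17, Tktl1 turned to -4.15, G6pdx to -2.27, Pgd to -3.29, Pgls to -4.12, Rpia to -1.94 and Rpe to -3.29. In fetal against GSC WT, Tktl1 turned to 2.42, G6pdx to 0.62, Pgd to 1.19, Pgls to 2.12, Rpia to 0.16 and Rpe to 0.24, and in P7 against GSC WT Tktl1 turned to -0.14 and G6pdx to -0.30. The share of higher genes among those called was 25.8% with ERCC totals and 45.5% with TMM in KO1 against WT, 58.1% and 45.9% in KO2 against WT, 62.7% and 33% in KO2 against KO1, 100% and 24.8% in E17 against E16, 0.3% and 44.4% in P7 against E17, 98.9% and 56.5% in fetal against GSC WT, and 16.2% and 52.3% in P7 against GSC WT. Without TMM it was 58.3%, 57.4%, 84% and 64.7% in KO1 against WT, KO2 against WT, E17 against E16 and P7 against GSC WT. Members past the threshold were then 1 in KO1 and 1 in KO2 against WT, where 1698 and 1917 of 11877 genes passed. Without TMM, values turned to 0.0377 for Rpe in KO1 and 0.0492 for G6pdx in KO2 against WT. They turned to 0.0247 for Taldo1 and 0.0193 for G6pdx in E17 against E16. In P7 against GSC WT they turned to 0.0306 for Taldo1, 0.11 for Pgd and 0.0078 for Rpia.

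No pairing was found, since deviations of same-numbered libraries correlated by -0.053 to 0.058. With a replicate block, members past the threshold in E17 against E16 were 2 (Tkt and Pgls), where 1314 of 14776 genes passed. With this block Rpe turned to 0.0075 in KO1 and G6pdx to 0.0052 in KO2 against WT. Taldo1 then passed as lower in P7 against E17 (-0.33), and 0 calls of members were lost. Members past the threshold were 1 in KO1 and 1 in KO2 against WT with DESeq2 and with the fit of 12 libraries. With no filter they were 1 in KO1 against WT, where 1503 of 20199 genes passed. With the fit of 12 they were 2 in E17 against E16. An absolute log2 fold change of at least 1 left 0 in KO1 and KO2 against WT and in P7 against GSC WT. DESeq2 took in 11877 genes in GSCs, and the fit of 12 took in 15827. Pgd turned to 0.0121 in KO2 against KO1 with the fit of 12, and G6pdx to 0.0001 in KO2 against WT with mitochondrial genes kept. Genes past the threshold in KO1 against WT, KO2 against WT and KO2 against KO1 numbered 679, 863 and 35 with DESeq2, 858, 1006 and 39 with the fit of 12, 516, 563 and 52 with the limit on fold change, and 1634, 1862 and 100 as reported, with 1180 in KO2 against WT with ERCC totals. In E17 against E16 they numbered 14508 with ERCC totals, 1540 without TMM, 1763 with the fit of 12, 335 with the limit and 975 as reported, and in P7 against GSC WT 2425 with the limit and 4905 as reported.

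Leaving out 1 library at a time, members past the threshold ranged from 1 to 3 in KO1 against WT, from 1 to 3 in KO2 against WT, from 0 to 4 in E17 against E16 and from 0 to 1 in P7 against GSC WT. In KO1 against WT, G6pdx ranged from -0.20 to 0.26, Pgls from -0.39 to 0.28 and Rpe from -0.31 to 0.37. In KO2 against WT, G6pdx ranged from -0.16 to 0.15, Pgls from -0.55 to 0.12, Rpia from -0.13 to 0.20 and Rpe from -0.10 to 0.57. In KO2 against KO1, Tkt ranged from -0.36 to 0.0297, Taldo1 from -0.0065 to 0.0311, G6pdx from -0.27 to 0.20 and Pgd from -0.0972 to 0.0855. Pgd ranged from -0.0157 to 0.13 in E17 against E16. In P7 against GSC WT, Taldo1 ranged from -0.24 to 0.0264, Pgd from -0.16 to 0.0545, Pgls from -0.56 to 0.10 and Rpia from -0.28 to 0.0285. Genes at a few counts, such as Rpe at E16, are limited by depth, and the same holds for Tktl1 in KO2.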

Other observations

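Markers of undifferentiated spermatogonia changed in both directions in the knockout lines. Of 8 tested, 3 were higher and 2 lower in KO1 against WT, and 3 were higher and 3 lower in KO2 against WT (edgeR, adjusted p of 0.05), where 6.26% of all genes were higher and 7.49% lower in KO1, and 7.2% and 8.48% in KO2. Etv5, a transcription factor that responds to GDNF, was higher (1.53 ± 0.12 in KO1 and 1.71 ± 0.12 in KO2, log2, SE), as was Lhx1 (2.003 ± 0.37 and 2.14 ± 0.36). Zbtb16, which encodes PLZF, was lower (-0.91 ± 0.14 and -0.87 ± 0.14), as was Sall4 (-0.76 ± 0.13 and -0.89 ± 0.13). In KO2 against KO1, 0 of the 8 passed in edgeR.

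In P7 against GSC WT, 16.2% of all genes were higher and 14.8% lower. Of 17 genes of glutathione, thioredoxin and peroxide metabolism, 2 were higher and 8 lower at P7, of 14 further pentose phosphate genes 2 were higher and 4 lower, and of 14 other NADPH sources 3 were higher and 0 lower. In E17 against E16, where 1.64% of all genes were higher and 4.96% lower, 1 of 13 further pentose phosphate genes was higher, Tktl2 (2.34 ± 0.55), and 1 was lower, the phosphoglucomutase gene listed as Pgm1 (-1.07 ± 0.17).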
